A study of Mus musculus with 8 samples.

Results

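Genes of glucose uptake, glycolysis, lactate handling and the response to low oxygen were followed through the stimulation of mouse spleen cells enriched for T cells. The cells were labelled Gfi1-knockout (KO-labelled) or wild type (WT-labelled), and their RNA also held signal of myeloid marker genes. The set held 34 genes drawn up by function: 2 glucose transporters, 10 enzymes of the upper and 7 of the lower part of glycolysis, 5 genes of pyruvate and lactate handling, and 10 hypoxia-inducible genes. Each gene was read from 1 probe set, that with the highest mean log2 signal among the probe sets listing that gene alone. Such a probe set existed for 30 of the 34, and 29 had a signal above a floor of 141.88 on at least 2 arrays, out of 8450 genes tested and 12393 covered. The neuronal-type enolase Eno2 stayed under the floor on all 8 arrays (11.7 to 138.8). The isomerase Gpi1 and the enolase Eno1 were not analysed here, and Gapdh and Bnip3l are described from control or shared probe sets only.

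Glycolysis splits glucose to pyruvate, and lactate dehydrogenase with the lactate carriers lets it run fast without mitochondrial respiration. Resting T cells use little glucose, and signals through the T cell receptor and CD28 are known to raise glucose uptake and glycolytic enzymes as the cells grow. The transcription factor HIF, a pair of an oxygen-regulated alpha subunit such as Hif1a with Arnt, raises many of the same genes when prolyl hydroxylases of the Egln family lack oxygen, and Hif1a is also induced by T cell receptor signals.

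RNA came from spleen cells of C57Bl/6 mice enriched for T cells with a pan-T kit on an AutoMACS, either Gfi1-knockout or wild type, and was hybridised to Affymetrix MOE430A_2.0 arrays. Each genotype was measured before stimulation and after 4, 8 and 24 h with anti-CD3 plus anti-CD28 antibodies at 2 µg/ml, with 1 array per genotype and time, 8 in all. The labels name 1 source per genotype by number, with no age and no description of the Gfi1 allele, and no cells cultured without the antibodies were measured. In a change over time the antibodies and the culture itself cannot be told apart, and no replicate checks a difference between genotypes, for which no p-value is given. In bulk RNA, fewer cells of a type and less RNA per cell cannot be told apart. Gfi1 itself gave 2316, 5979, 6459 and 9885 under the knockout label at 0, 4, 8 and 24 h and 882, 6359, 5259 and 3966 under the wild-type label. It was thus not lower in the KO-labelled arrays at 0, 8 or 24 h, and where its probe set lies relative to the deletion is not stated in the labels, so it does not check them. Between 56.6% and 61.6% of probe sets were above the floor per array, and the median signal was lowest in the WT-labelled 24 h array (224) and highest in the KO-labelled 0 h array (305.0).

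The promoters of the members are given first, with the core motifs ACGTG and GCGTG that HIF binds. HIF protein and its binding to DNA were not measured, and a part of HIF in the differences between arrays was not tested. RefSeq windows from 250 bases before to 50 after a gene's start (GRCm38.p6) were found for 31 of the 34 members, 46 windows in all. Of these, 37 (80.4%) held at least 1 of the motifs on either strand, against 43.8% of all 32851 windows. ACGTG was found in 25 member windows (54.3%, against 19.6% of all) and GCGTG in 27 (58.7%, against 32.4%). ACGTG lies within the E-box CACGTG, which reads the same on both strands and so counts on each. Median GC content was 62.15% in member windows and 52.7% in all, and the part of base composition in the difference was not tested. The set was drawn up to include hypoxia-inducible genes. A surplus of these motifs was thus built into the choice and is no result of these arrays. Some windows of the same gene also overlap and share a match, as for Aldoa, and each was counted. The 250 bases before the start are shown for 5 members, 5′ to 3′ along the gene's strand, with matches on either strand in capitals. Ldha has a second window, not shown, with 0 matches of ACGTG and 1 of GCGTG in its 250 bases. Bnip3 and Slc2a1 had large differences between the arrays at 24 h, Pgk1 and Ldha passed the test of change over time, and Tpi1, the 1 gene at least 2-fold apart at all 4 times, shows a window without a match.
Bnip3, chr7:138909507-138909756, minus strand: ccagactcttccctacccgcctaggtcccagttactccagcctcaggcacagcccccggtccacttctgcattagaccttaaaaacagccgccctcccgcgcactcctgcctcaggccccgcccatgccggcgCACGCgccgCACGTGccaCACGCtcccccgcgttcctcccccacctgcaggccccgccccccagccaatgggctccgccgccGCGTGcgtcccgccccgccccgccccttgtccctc
Slc2a1, chr4:119108495-119108744, plus strand: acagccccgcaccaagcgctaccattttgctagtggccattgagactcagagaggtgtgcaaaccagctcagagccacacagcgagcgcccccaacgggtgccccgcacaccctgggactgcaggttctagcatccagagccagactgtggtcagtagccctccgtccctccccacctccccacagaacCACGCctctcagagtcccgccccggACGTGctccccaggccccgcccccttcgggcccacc
Pgk1, chrX:106186850-106187099, plus strand: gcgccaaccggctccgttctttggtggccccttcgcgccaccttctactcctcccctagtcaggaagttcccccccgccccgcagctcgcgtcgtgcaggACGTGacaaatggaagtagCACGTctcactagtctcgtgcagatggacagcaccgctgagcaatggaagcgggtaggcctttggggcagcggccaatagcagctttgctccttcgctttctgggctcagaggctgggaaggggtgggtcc
Ldha, chr7:46845554-46845803, plus strand: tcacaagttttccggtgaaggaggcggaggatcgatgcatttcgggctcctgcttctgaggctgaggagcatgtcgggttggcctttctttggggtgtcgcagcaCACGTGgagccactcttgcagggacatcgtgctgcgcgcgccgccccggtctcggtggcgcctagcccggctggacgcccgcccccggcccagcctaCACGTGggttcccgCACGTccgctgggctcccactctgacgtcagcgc
Tpi1, chr6:124814159-124814408, minus strand: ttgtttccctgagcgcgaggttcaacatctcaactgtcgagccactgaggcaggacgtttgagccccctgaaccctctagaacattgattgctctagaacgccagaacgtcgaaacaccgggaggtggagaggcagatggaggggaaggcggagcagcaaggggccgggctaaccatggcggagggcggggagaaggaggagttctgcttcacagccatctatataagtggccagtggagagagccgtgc
A match describes letters in the window only and is not a site shown to be bound.

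At 24 h most of the genes were higher in the KO-labelled array, and at the earlier times few were. Of the 29 members tested, 21 were at least 2-fold higher and 1, the lactate carrier Slc16a1, at least 2-fold lower in the KO-labelled array at 24 h, while 9.16% of all tested genes were higher and 5.07% lower by that size. At 0 h 5 members were higher and 1 lower (8.08% and 6.76% of all genes), or 5 and 2 with quantile normalization. At 4 h 3 were higher and 1 lower (11.8% and 6.57%), and at 8 h 1 was higher and 2 lower (10.7% and 6.66%). The median difference over the members was 0.11, 0.00, -0.08 and 1.12 on the log2 scale at 0, 4, 8 and 24 h, against 0.00, 0.00, -0.08 and 0.00 over all tested genes. The KO-labelled 24 h array held the highest of the 8 signals for 24 of the 29 members and for 13.8% of all tested genes. Dividing each array by its median shifted the median of all genes to -0.19 at 24 h, and then 14 members were higher and 2 lower, with 6.73% of all genes higher. With quantile normalization 16 were higher and 0 lower, with 7.89% of all genes higher. The same 14 members, listed here by role, were at least 2-fold higher under all 3 scalings: Slc2a1, Slc2a3, Hk1, Aldoc, Tpi1, Pkm, Slc16a3, Bnip3, Egln1, Egln3, Hilpda, P4ha1, Ndrg1 and Ddit4. The other 7 lay just past the threshold, between 1.01 and 1.12. Aldoc, counted in both the 21 and the 14, was above the floor on 2 KO-labelled arrays only. At that floor it could come out higher in the KO-labelled arrays but not lower.

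**Figure D1:**
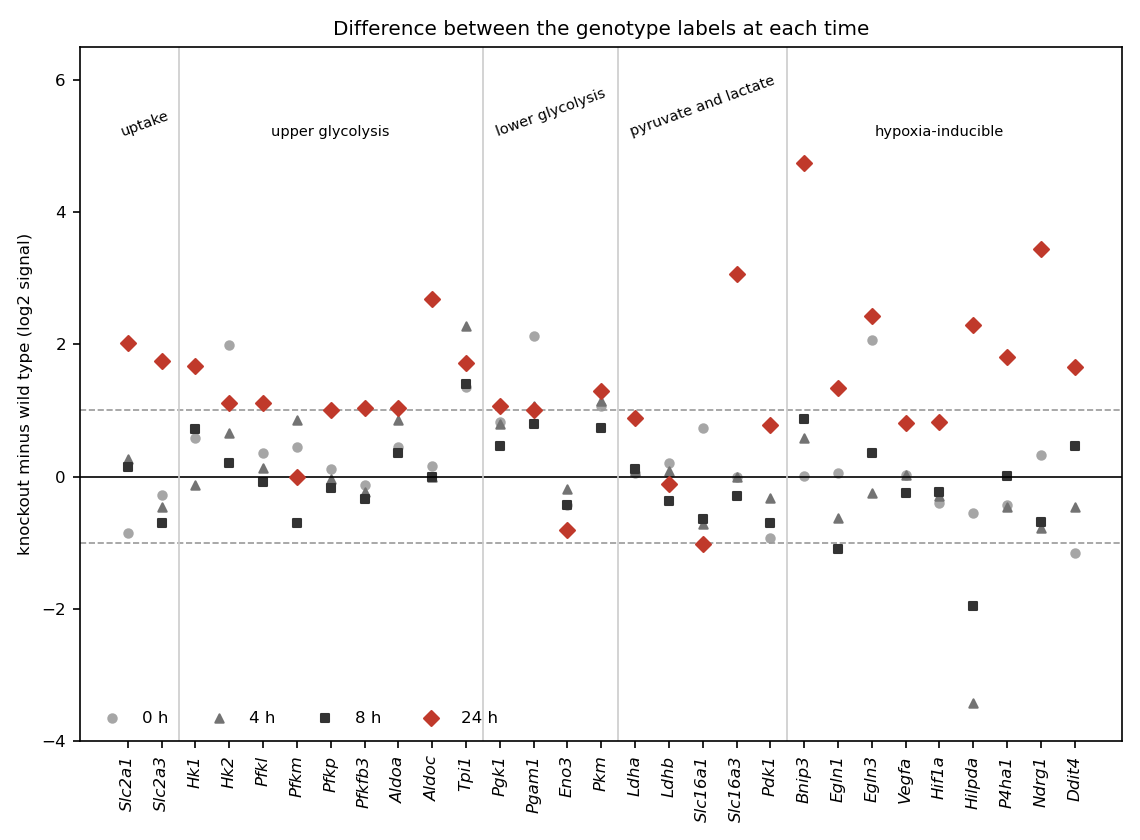
Knockout minus wild type in log2 signal (vertical axis) for the 29 tested members (horizontal axis, by role), 1 point per time and no error bar because each value comes from 1 array per genotype. Dashed lines mark 2-fold. The 24 h diamonds lie at or above the upper line for 21 members, and Bnip3 is the highest at 4.74, while Hilpda at 4 h is the lowest value at -3.42.

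Within the glucose transporters, both genes were higher in the KO-labelled array at 24 h. Slc2a1, the main glucose carrier of activated T cells, gave signals of 730.5, 2524, 2703 and 12881 at 0, 4, 8 and 24 h in the KO-labelled arrays and 1325, 2114, 2431 and 3171 in the WT-labelled ones. The KO-labelled value at 24 h exceeded the other 7, and the WT-labelled value was the higher of the pair at 0 h. The log2 difference was -0.86, 0.26, 0.15 and 2.02, and all 3 probe sets of the gene gave at least 2.01 at 24 h. Slc2a3, a high-affinity carrier, gave 2266, 873, 847 and 5241 (knockout label) and 2744, 1198, 1374 and 1556 (wild-type label). Both genotypes were lower at 4 and 8 h than at 0 h, and at 24 h the KO-labelled array alone was above its own 0 h value.

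Among the enzymes of upper glycolysis, Tpi1 and Hk2 stood out in different ways, and 8 of 9 tested members were at least 2-fold higher at 24 h. Tpi1, which interconverts the triose phosphates, gave 7566, 5469, 4688 and 31630.3 under the knockout label and 2974, 1125, 1771 and 9634 under the wild-type label. Each KO-labelled value was above its partner at the same time, and both genotypes had their lowest values at 4 or 8 h and their highest at 24 h. It was the 1 member at least 2-fold higher at all 4 times (0 were lower at all 4), a rule met by 1.86% of all tested genes in the higher and 0.166% in the lower direction. Its mean log2 difference was 1.69 (SD over the 4 times 0.43), and its 3 probe sets lay between 1.35 and 2.80 at each time. Without the 8 h pair, Pgam1 and Pkm would also meet the rule.

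Hk2, the inducible hexokinase that traps glucose in the cell, gave 1225, 1926, 3511 and 6417 under the knockout label and 308, 1214, 3046 and 2948 under the wild-type label. The genotypes lay 1.99 apart at 0 h, were close at 8 h (0.21) and were 1.12 apart at 24 h. The constitutive hexokinase Hk1 had differences of 0.59, -0.13, 0.72 and 1.68, and its second probe set gave 2.53 at 8 h. Aldoa, the aldolase of most tissues, gave 8876, 12653, 13843 and 33083 (knockout label) and 6511, 6998, 10890.5 and 16077 (wild-type label), with the KO-labelled value above its partner at each time (0.45, 0.85, 0.35 and 1.04). Its probe sets carry a suffix that marks possible cross-hybridisation. Aldoc, the brain-type aldolase, was above the floor on 2 arrays only, KO-labelled at 0 h (159) and at 24 h (909). The 24 h difference of 2.68 is thus a lower bound. Having passed the filter through KO-labelled arrays alone, Aldoc could come out higher in them but not lower. It is still counted among the upper glycolysis members 2-fold higher at 24 h. Its other probe set stayed under the floor on all 8 arrays (5.0 to 69.0).

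Of the 3 phosphofructokinase subunits, 2 were higher at 24 h and 1 was level. Pfkp, the platelet-type subunit, and Pfkl, the liver-type one, were 1.01 and 1.11 higher in the KO-labelled array at 24 h. Pfkm, the muscle-type subunit, was at 336 and 339 in the KO-labelled and WT-labelled arrays at 24 h (difference -0.01), and was below its 0 h value in both genotypes (by -1.50 and -1.04). Pfkfb3, which makes the allosteric activator of phosphofructokinase, differed by 1.04 at 24 h and by -0.34 to -0.13 earlier. Its other probe set gave 0.58 at 24 h, under the 2-fold size.

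In lower glycolysis the genotype difference was present before 24 h for 3 of the 4 tested genes. Pgk1, the phosphoglycerate kinase, gave 10751, 13081, 13350.5 and 39262 under the knockout label and 6063, 7572, 9728 and 18692 under the wild-type label. Pgam1, the mutase after it, gave 9295, 7809, 7756 and 15984 (knockout label) and 2144, 3714, 4450.5 and 7939 (wild-type label), with its largest difference at 0 h (2.12) and 1.01 at 24 h. Pkm, the pyruvate kinase of proliferating cells, gave 6948, 8195, 9936 and 26317 (knockout label) and 3341, 3684, 5987 and 10712 (wild-type label). For these 3 enzymes the KO-labelled value was above its partner at every time, and the WT-labelled value at 24 h was above every KO-labelled value of 0 to 8 h for Pgk1 and Pkm but not for Pgam1. Eno3, the muscle enolase, went the other way, with differences of -0.43, -0.19, -0.43 and -0.81. Gapdh, read from 3 control probe sets, was higher in the KO-labelled array at every time. The differences were 0.38 to 0.50 at 0 h, 0.95 to 1.08 at 4 h, 0.71 to 1.00 at 8 h and 0.81 to 0.92 at 24 h.

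Lactate dehydrogenase and the lactate carriers did not move as a block. Ldha, the subunit that favours lactate formation, gave 13192, 14063, 17366 and 45933 under the knockout label and 12689, 13346, 16112 and 24990.1 under the wild-type label. The genotypes were within 0.11 of each other up to 8 h and 0.88 apart at 24 h, just under the 2-fold size. Ldhb, the heart-type subunit, stayed between 384 and 642 on all 8 arrays, with differences of -0.37 to 0.21. Slc16a3, the lactate exporter of glycolytic cells, gave 134, 121, 111 and 1179.8 (knockout label) and 89.5, 60.3, 173 and 135 (wild-type label). It was above the floor only in the KO-labelled array at 24 h and, slightly, in the WT-labelled array at 8 h, so its 24 h difference of 3.06 is a lower bound (at least 8.32-fold). Slc16a1, a lactate and pyruvate carrier that works in both directions, gave 5807, 4036, 4840.2 and 2877 (knockout label) and 3501, 6669.8, 7596 and 5820.0 (wild-type label). It was the higher in the KO-labelled array at 0 h only (0.73, then -0.72, -0.65 and -1.02). Pdk1, the kinase that shuts off pyruvate dehydrogenase, was below its 0 h value at 4 and 8 h in both genotypes and differed by 0.78 at 24 h.

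The hypoxia-inducible genes held the largest differences, and 7 of 9 tested members were at least 2-fold higher in the KO-labelled array at 24 h. Bnip3, a mitochondrial receptor for autophagy, gave 379, 339.8, 401 and 13923 under the knockout label and 378, 225, 219.7 and 522 under the wild-type label. A single array, KO-labelled at 24 h, stood apart from the other 7, at 34.7-fold its 8 h value, while the WT-labelled arrays gave 2.37-fold for the same interval. The difference of 4.74 at 24 h (26.7-fold) followed values of 0.01, 0.59 and 0.87. For the related Bnip3l, 3 probe sets that also list its pseudogene differed by 1.81 to 2.00 at 24 h and by -1.07 to -0.14 earlier.

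Hilpda, Ndrg1, Egln3 and Ddit4 are given in full because of their values, not by the rule for named genes, as are Slc2a3 and Slc16a1. Hilpda, a lipid droplet protein that restrains lipolysis, gave 224, 219, 339 and 5286 under the knockout label and 327, 2352, 1316 and 1081 under the wild-type label. Its highest WT-labelled value came at 4 h, when the KO-labelled array was at its 0 h level, and the order of the genotypes was the opposite at 24 h (-0.55, -3.42, -1.96 and 2.29). Ndrg1, a stress-responsive gene, gave 566, 1907, 2666 and 6363 (knockout label) and 450.0, 3268, 4306 and 583 (wild-type label). Both genotypes were higher at 4 and 8 h than at 0 h, and at 24 h the WT-labelled array was back near its start (0.37 above it) while the KO-labelled one was 3.49 above. All 5 of its probe sets gave 2.56 to 3.82 at 24 h, while the one used carries, like that of Slc2a3, a suffix for possible cross-hybridisation.

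The oxygen-sensing hydroxylase Egln3 gave 721, 483, 515 and 6360.4 (knockout label) and 172, 575, 405 and 1183 (wild-type label), so both genotypes were highest at 24 h and the 0 h difference (2.07) was nearly as large as that at 24 h (2.43). Its other probe set gave 0.41 at 0 h (188 against 120.0) and 2.01 at 24 h. Its relative Egln1 differed by 0.05, -0.63, -1.09 and 1.34. Ddit4, an inhibitor of the mTOR pathway, gave 2539.8, 888, 1748 and 9387 (knockout label) and 5655, 1221, 1268 and 2999 (wild-type label). The WT-labelled array was the higher at 0 h, both genotypes were lower at 4 h, and only the KO-labelled value at 24 h exceeded the 0 h value of its own genotype. P4ha1, a collagen prolyl hydroxylase, differed by -0.46 to 0.01 up to 8 h and by 1.81 at 24 h in the probe set used. Its other probe set gave -0.72, -0.28, 1.55 and 1.99 at 0, 4, 8 and 24 h.

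Hif1a and Vegfa differed less between the genotypes at 24 h than the other 7 hypoxia-inducible genes tested. Hif1a gave 4219.8, 11600.1, 14212 and 22304 under the knockout label and 5562, 14266, 16756 and 12516 under the wild-type label. The WT-labelled value was the higher at 0, 4 and 8 h and the KO-labelled one at 24 h (0.83). Vegfa, the vascular growth factor, gave 145, 386, 467 and 744 (knockout label) and 95.6, 382, 554 and 426 (wild-type label). Its WT-labelled value at 0 h was under the floor, and the differences were 0.02, -0.25 and 0.81 at 4, 8 and 24 h. Among the 17 members with more than 1 tested probe set, all probe sets of a gene shared the direction of the genotype difference for 17 at 24 h, 15 at 0 h, 12 at 4 h and 9 at 8 h, so the directions at 4 and 8 h depend on the probe set for some genes. Hif1a at 8 h, for example, gave -0.24 in the probe set used and up to 1.45 in another.

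**Figure D2:**
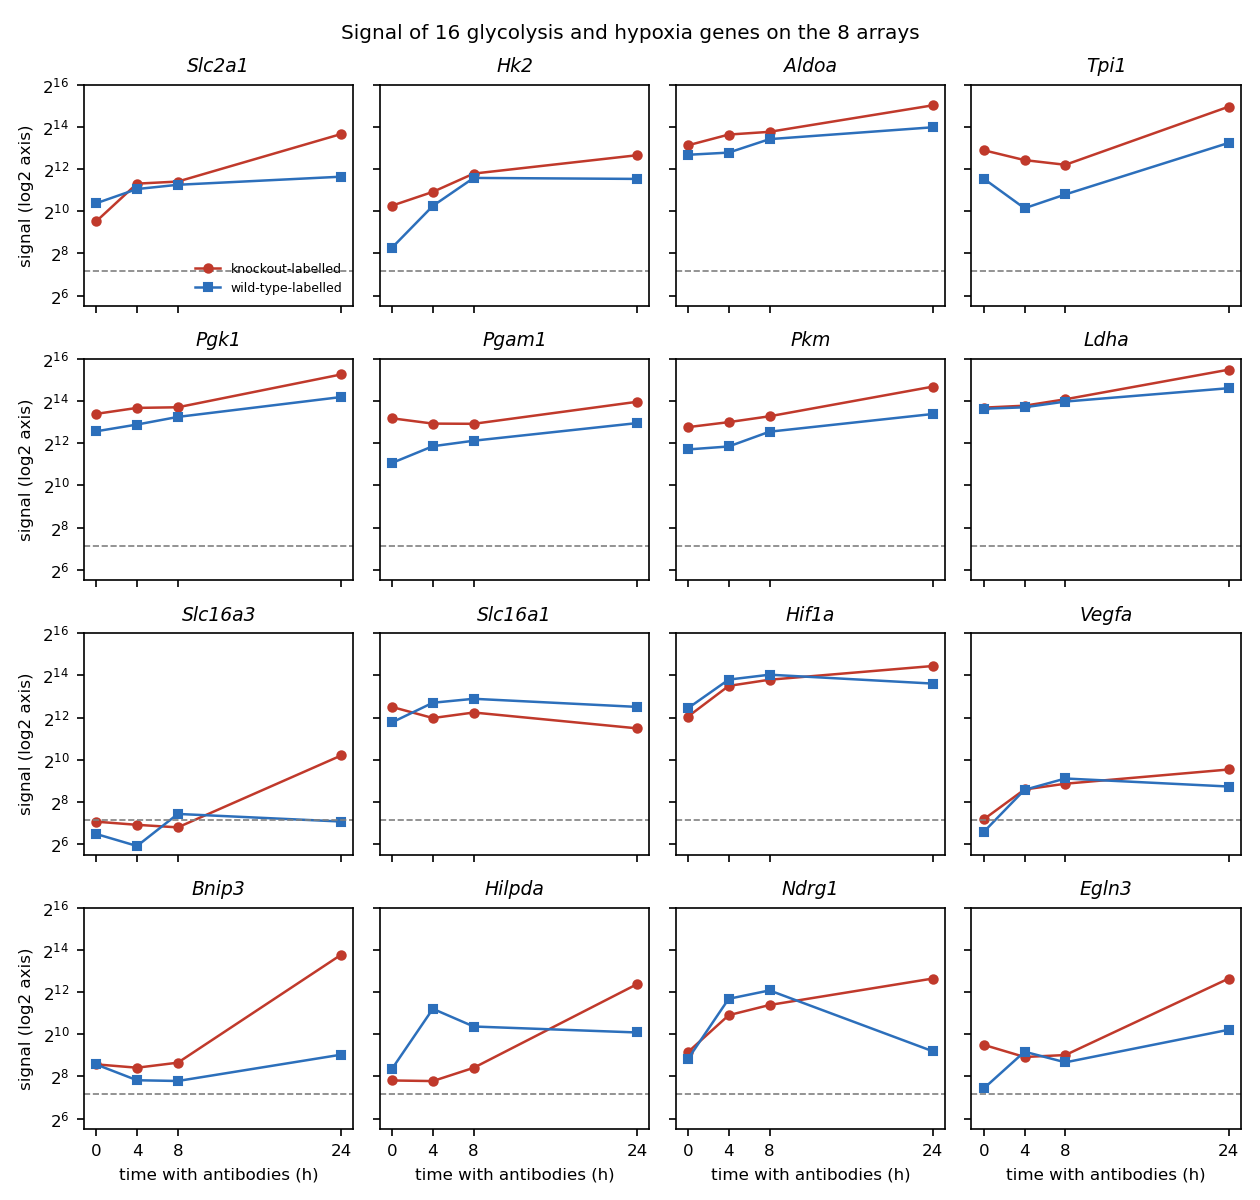
Signal on a log2 axis against time with the antibodies for 16 members, with circles for KO-labelled and squares for WT-labelled arrays, 1 array per point, and the dashed line at the floor of 141.88. Lines join the arrays of a genotype. Bnip3 in the KO-labelled array goes from 401 at 8 h to 13923 at 24 h, and Ndrg1 in the WT-labelled array goes from 4306 to 583.

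The genotypes separated mainly between 8 and 24 h. In the KO-labelled arrays 22 members were at least 2-fold higher at 24 h than at 8 h and 0 were lower by that size, while 5 were higher and 1 (Ndrg1) lower in the WT-labelled arrays. Over all tested genes, 6.15% and 5.08% were higher by that size in the KO-labelled and WT-labelled arrays. The median change from 8 to 24 h over the members was 1.41 in the KO-labelled and 0.18 in the WT-labelled arrays, and over all tested genes 0.03 and 0.00. A late change of this size was not particular to the members. It was 1.39 and 0.02 over the 16 tested T cell markers, and -3.56 and -0.97 over the granulocyte markers. Whether these changes are linked to those of the members was not tested. From 0 to 24 h, 9 members had a change at least 4-fold greater in the KO-labelled arrays and 0 at least 4-fold smaller, against 3.62% and 2.57% of all tested genes. These were Slc2a1 (a difference in log2 change of 2.88), Slc2a3 (2.03), Aldoc (2.52), Slc16a3 (3.06), Bnip3 (4.73), Hilpda (2.84), P4ha1 (2.24), Ndrg1 (3.12) and Ddit4 (2.80). For Aldoc and Slc16a3 the value rests on arrays at the floor and has no bound. Aldoc also passed the filter through KO-labelled arrays alone. Dividing each array by its median left 7 members past that size. Tpi1 (0.37), Pgk1 (0.24) and Pkm (0.24), by contrast, had changes of nearly equal size in both genotypes, and Hk2 (-0.87) and Pgam1 (-1.11) had the larger change in the WT-labelled arrays, from lower 0 h values.

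**Figure D3:**
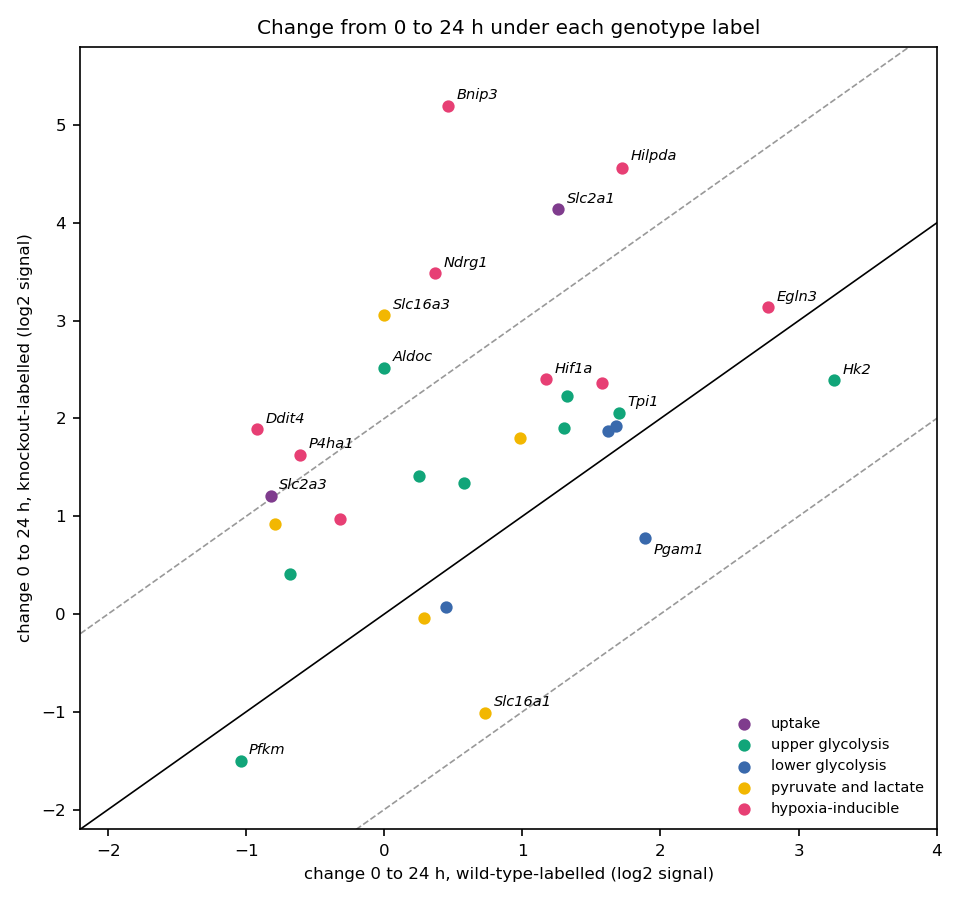
Change in log2 signal from 0 to 24 h in the KO-labelled arrays (vertical axis) against that in the WT-labelled arrays (horizontal axis) for the 29 tested members, coloured by role. The solid line marks equal change and the dashed lines a 4-fold difference in change. Bnip3 lies at 0.46 and 5.20, and 9 members lie above the upper dashed line.

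Averaged over the genotypes, the test of change with time called glycolytic enzymes and 2 hypoxia genes higher at 24 h than at 0 h, and the 7 genes with the largest difference between genotypes at 24 h were not called. In limma, with time and genotype in the model and a call at an adjusted p under 0.05 and at least 2-fold, 9 of the 29 members rose from 0 to 24 h and 0 fell, against 1.49% and 2.49% of all tested genes. They were Hk2 (2.82, SE 0.42, limma adjusted p = 0.0230), Vegfa (1.97, SE 0.36, limma adjusted p = 0.0376), Tpi1 (1.88, SE 0.28, limma adjusted p = 0.0230), Pkm (1.80, SE 0.22, limma adjusted p = 0.0159) and Hif1a (1.79, SE 0.33, limma adjusted p = 0.0402). Pfkp (1.78), Pgk1 (1.75), Aldoa (1.60) and Ldha (1.39) also passed, with limma adjusted p-values of 0.0359, 0.0191, 0.0257 and 0.0487. The p-values set the common change against the difference between the genotypes' responses and measure no spread between animals or cultures. Hilpda (3.14, SE 1.17, limma adjusted p = 0.189), Egln3 (2.96, limma adjusted p = 0.0652), Bnip3 (2.83, SE 1.05, limma adjusted p = 0.187) and Slc2a1 (2.70, limma adjusted p = 0.0615) had mean changes as large as or larger than most of those called and did not pass. The change was above 0 in both genotypes for 18 of the 29 members, a share that was not counted over all tested genes. The median change over the members was 1.39, against -0.08 over all tested genes.

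From 0 to 8 h, 1 member rose and 0 fell (1.18% and 1.25% of all tested genes). This was Hk2, at 2.41 (SE 0.42, limma adjusted p = 0.0440), and it was higher in both genotypes. From 0 to 4 h, 0 members passed in limma in either direction (0.805% of all tested genes rose and 0.627% fell), with 10 at an unadjusted p under 0.05, and 2 passed without either of the 24 h arrays. From 4 to 24 h, Tpi1 alone rose (2.82, limma adjusted p = 0.0493) and 0 fell, when 0.0473% and 0.0947% of all tested genes did. The share of all tested genes at an unadjusted p under 0.05 from 0 to 4 h was not counted. The 3 comparisons with 0 h share the 0 h arrays. Without any 1 of the 6 arrays of 0, 4 and 8 h, 0 members passed from 0 to 24 h, and without the KO-labelled 24 h array 2 of the 9 did. Without the WT-labelled 24 h array 16 passed, the 9 among them. With no genotype term in the model, or with no filter on low signals, 0 passed as well. Over all genes, the calls from 0 to 24 h went from 336 to between 0 and 9 without 1 of those 6 arrays, and to 102 and 710 without the 24 h arrays. The Hk2 call from 0 to 8 h was likewise lost without any 1 of the same 6 arrays, and with quantile normalization or no variance trend, when 1 other member was called. With either 24 h array left out, 5 members passed, Hk2 among them. The Tpi1 call from 4 to 24 h was lost without any of the 8, though 5 other members passed without the WT-labelled 24 h array. Over the 8 fits that each left out 1 array, the change from 0 to 24 h ranged for Pkm from 1.64 to 1.96 (limma adjusted p 0.0188 to 0.163), for Tpi1 from 1.65 to 2.11, for Pgk1 from 1.56 to 1.94 and for Aldoa from 1.36 to 1.85. Pfkp (1.25 to 2.30), Ldha (0.99 to 1.79), Hif1a (1.21 to 2.36) and Vegfa (1.54 to 2.41) ranged more widely, each lowest without the KO-labelled and highest without the WT-labelled 24 h array. Hk2 ranged from 2.16 without the WT-labelled to 3.49 without the KO-labelled 0 h array. The Vegfa change was 0.32 (limma adjusted p = 0.428) with the floor at the 60th percentile and 1.54 (limma adjusted p = 0.0677) with the median over its probe sets.

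**Figure D4:**
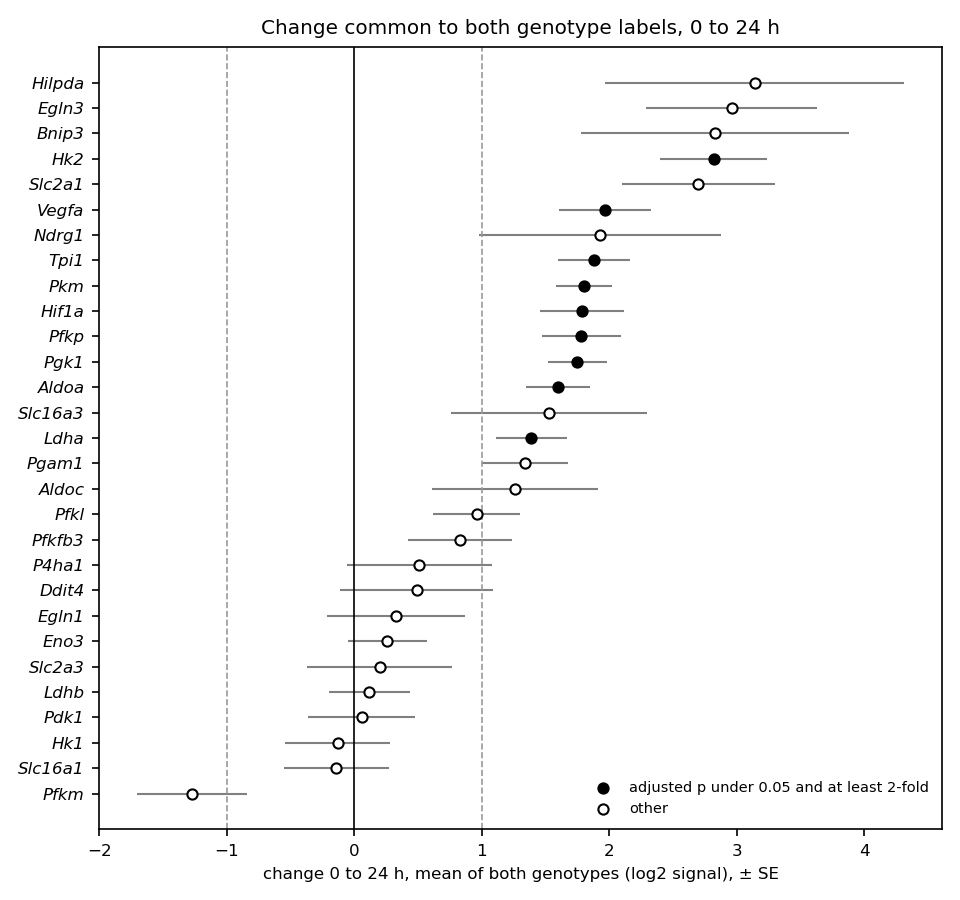
Mean over both genotypes of the log2 change from 0 to 24 h (horizontal axis) with its standard error from limma for the 29 tested members, in order of size. Filled points mark the 9 members with an adjusted p under 0.05 and at least 2-fold. Bnip3 and Hilpda have long error bars (SE 1.05 and 1.17) because the genotypes' changes differed, and Pkm a short one (SE 0.22).

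Further genes of these and neighbouring pathways were counted from other lists. Pgm1 stands in both the other glycolysis and the other hypoxia list and counts as higher at 24 h in each (1.88). Among 12 other glycolysis genes tested, 2 were at least 2-fold higher in the KO-labelled array at 24 h, the median difference was 0.07, and 0 rose and 1 fell from 0 to 24 h. The gene that fell was Pklr, the liver and red cell pyruvate kinase (-1.44, SE 0.22, limma adjusted p = 0.0234). For 7 pentose phosphate genes and 12 genes from pyruvate into the citric acid cycle, 0 differed by 2-fold between the genotypes at 24 h, with median differences of -0.16 and -0.32. From 0 to 24 h 0 of either list were called in limma, with 1 of each at an unadjusted p under 0.05. That share was not counted over all tested genes. Among 27 other hypoxia-inducible genes tested, 12 were at least 2-fold higher and 0 lower at 24 h (median 0.81), and 8 had a change at least 4-fold greater in the KO-labelled arrays. In that list 3 rose from 0 to 24 h: the clock and stress repressor Bhlhe40 (4.24, limma adjusted p = 0.0271), the disulfide oxidase Ero1a (1.97, limma adjusted p = 0.0234) and the mitochondrial Higd1a (1.73, limma adjusted p = 0.0324). Cited2, which competes with HIF for its coactivators, fell (-1.56, limma adjusted p = 0.0205). Anxa2, a membrane-binding protein also made by myeloid cells, was the 1 gene of that list at least 2-fold higher at all 4 times, at 5476, 8972, 7268 and 17138 (knockout label) against 2046, 1498, 1486 and 909 (wild-type label). Of 15 tested regulators of these pathways 1, Irf4, rose from 0 to 24 h (4.58, SE 0.65, limma adjusted p = 0.0217), and 1 was at least 2-fold higher and 1 lower at 24 h (median -0.16).

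Markers of other cells moved between the same arrays, and their part in these differences was not tested. All 16 tested T cell markers were above the floor on all 8 arrays, with summed signals of 29431 to 75113 in the KO-labelled and 79677 to 118854 in the WT-labelled arrays, and median differences of -1.83, -1.73, -1.62 and -0.24 at 0, 4, 8 and 24 h. Granulocyte markers (13 tested) had medians of 3.40, 4.34, 4.34 and 1.35, and the 14 on the array summed to 6703 to 177138 and 1050 to 17046. Among them Ngp, Camp and Ltf went the other way at 0 and 4 h (-0.82 to -0.21). Monocyte and macrophage markers (15 tested) had medians of 0.96, 1.72, 2.95 and 2.35, and the 17 on the array summed to 32136 to 78206 and 4491 to 19519. At 24 h, 12 of the 13 granulocyte and 9 of the 15 monocyte markers were at the floor in the WT-labelled array, Csf1r, Cd14, Itgam, Mpo and Elane among them, and 3 and 3 were in the KO-labelled one. Genes of mitosis (20 tested) had medians of 1.08, 2.54, 2.13 and -0.73. B cell, red cell, and NK, dendritic and platelet markers (8, 8 and 7 tested) had 0.00, -0.28 and 0.00 at 24 h. Of these, 5, 4 and 2 were at the floor in the KO-labelled and 5, 3 and 2 in the WT-labelled 24 h array. These medians thus hide single differences. By 2-fold, 2, 0 and 2 were higher and 1, 1 and 1 lower in the KO-labelled array, Jchain (3.54) and Car1 (-3.13) among them. The KO-labelled 24 h array also had the highest 18S ribosomal RNA signal in the control probe set at its 5′ end (37640.2, against 948 to 26481 on the others). The beta-actin control probe sets were highest there too, at 55299 to 67084, against 36933 to 42479 in the WT-labelled 24 h array. At 0, 4 and 8 h each was lower in the KO-labelled array (33143 to 37455 against 45270 to 53135 at 0 h). The part of this in the member differences was not tested. The ratio of 3′ to 5′ signal of Gapdh was 0.725 to 0.939 over the 8 arrays and 0.813 and 0.752 in the KO-labelled and WT-labelled 24 h arrays.

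**Figure D5:**
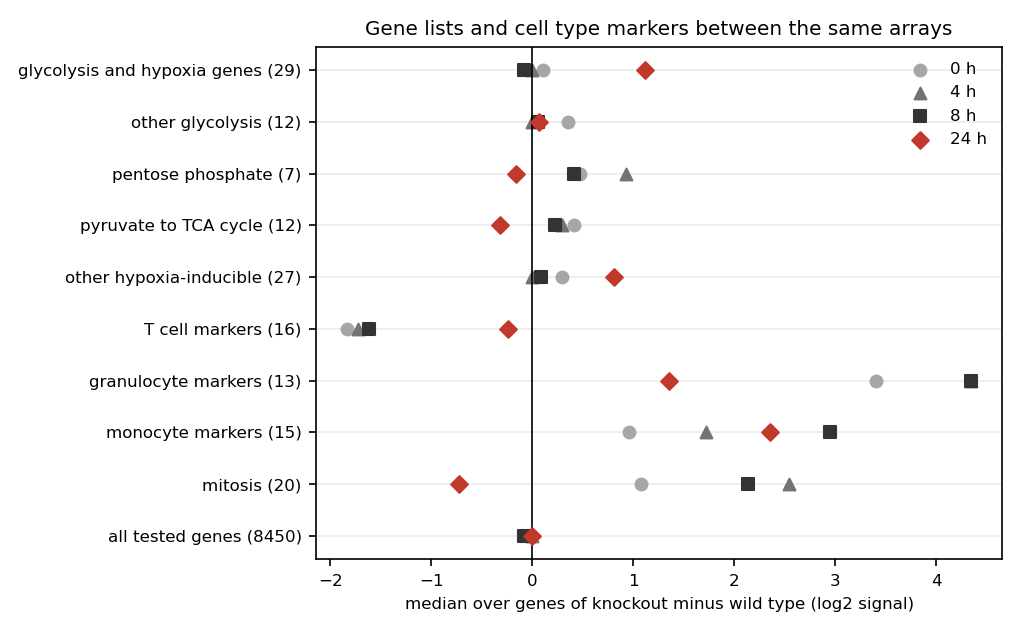
Median over the genes of a list of knockout minus wild type in log2 signal (horizontal axis) at each time, with the number of tested genes in brackets. The median of the glycolysis and hypoxia genes is near 0 up to 8 h and at 1.12 at 24 h. The medians of the granulocyte and monocyte markers lie above 0 at every time and that of the T cell markers below it.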

How the data were processed

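The deposited values are signal intensity per probe set, 1 column per array, from which 0 per-sample columns were left unused. GCOS 1.4 and MAS5 are named in the submitters' processing notes, and their roles are not given in the sources used here. Of 22690 probe sets, 64 were controls, and each array's 2% trimmed mean was 1000.4 to 1000.5. Before log2 was taken, signals were raised to at least 141.88 (log2 7.15), the across-array median of the 40th percentile, called the floor. A difference against the floor is a lower bound. The 15062 probe sets above it on at least 2 arrays were fitted in limma 3.58.1 (R 4.3.3) with time and genotype, a variance trend and Benjamini-Hochberg adjustment over all of them, with 3 residual and a median of 3.88 prior degrees of freedom. Genotypes were compared by size alone. With 1 array per genotype and time, the number of arrays limits the precision. Gene symbols came from the platform annotation (20380 probe sets with 1 symbol, 691 with several, 1555 with none).

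Signals in all 8 arrays are printed for members 2-fold apart at all 4 times, the 5 largest called changes per comparison, and in each role group the member with the highest mean and that with the largest mean genotype difference. Genes of other lists are named where called or 2-fold apart at all 4 times. The members and lists were chosen with earlier results of these data known. The fit was tested on simulated data. Python 3.11.15 with pandas 2.3.3, numpy 2.4.6 and matplotlib 3.10.9 made the tables and figures. The alternatives were other scalings, floors, filters, probe sets, fold sizes and models, and leaving out each array.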

Additional observations from a re-analysis of the deposited data

Results flagged for a closer look

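For 6 members the change from 0 h went in opposite directions in the KO-labelled and WT-labelled arrays, with at least 0.5 on the log2 scale in each. With 1 array per genotype and time, none of these 7 differences could be tested. Slc2a3 changed by 1.21 and -0.82 from 0 to 24 h (a difference of 2.03), Ddit4 by 1.89 and -0.92 (2.80), P4ha1 by 1.63 and -0.61 (2.24) and Pdk1 by 0.92 and -0.79 (1.71). The lactate carrier Slc16a1 changed the other way, by -0.52 and 0.93 from 0 to 4 h (-1.45) and by -1.01 and 0.73 from 0 to 24 h (-1.75). Egln3 changed by -0.58 and 1.74 from 0 to 4 h (-2.32).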

How the results depend on the processing

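The count of members at least 2-fold apart at 24 h (22) stayed within 1.5 times under all 8 alternatives, at 16 to 27, while the counts of calls did not. From 0 to 24 h, 9 members were called, against 5 with the floor at the 60th percentile and 0 with no filter or no genotype term. From 0 to 8 h the count was 1 (Hk2, which quantile normalization and no variance trend each exchanged for 1 other member), against 4 after scaling arrays to their medians, 3 with the floor value added before log2, and 0 with no filter or no genotype term. From 4 to 24 h it was 1, against 2 with that value added and 0 with quantile normalization, the floor at the 60th percentile, the median over probe sets, the Gapdh control probe sets allowed, no filter, no genotype term or no variance trend. Leaving out 1 array gave 0 to 2 (4 h), 0 to 5 (8 h), 0 to 16 (24 h) and 0 to 5 (24 against 4 h). At 1.5-fold in place of 2-fold, 11, 12 and 12 members lay apart at 0, 4 and 8 h, against 6, 4 and 3, and 3 at all 4 times against 1. Leaving out the pair of 1 time gave 1 to 3 members apart at all remaining times. Apart from the alternatives' own construction (fewer arrays, a smaller fold, another floor), the causes were not tested. No paired analysis was possible because no replicate numbers are shared, other than through the genotype term, which already blocks on the 1 source per genotype. Signal near the floor limits Aldoc, Slc16a3, Vegfa at 0 h and Eno2, and the Vegfa change from 0 to 24 h went from 1.97 to 0.32 with the floor at the 60th percentile.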
